A study of Mus musculus with 17 samples.

Results

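Osteoprogenitor cells (OPCs) of mice with the 1013 mutation on both Cxcr4 alleles (1013/1013) were set against OPCs of mice with the mutation on 1 allele (+/1013), so the comparison asks what the second mutant allele adds. It uses 6 of the 17 libraries of the series, the 3 OPC libraries of each genotype, chosen by their sample titles. It covers all 55335 genes of the count tables, of which 16207 had enough counts to be tested. The 1013 allele is a germline knock-in that truncates the distal C-tail of the receptor, so every cell of these animals carries it, blood cells included, and the OPCs come from bone that developed with the mutation. The 1013/1013 mice were bred from +/1013 parents, and the paper describes the animals as female littermates aged 8 to 12 weeks. No other allele or treatment is named for the OPC libraries of either genotype. Whether alleles linked to Cxcr4 differ too was not tested. Each library was made from 3000 cells pooled from 3 mice, so a replicate is a pool, not an animal. The cells were sorted from digested long bones as CD45-, TER119-, CD31-, Sca-1-, CD51+ cells, with or without PDGFRα. Skeletal stromal cells (SSCs), the Sca-1+ PDGFRα+ cells of the same bones, appear below for reference and in the fits that name them. The 3 OPC libraries of wild-type (WT) littermates are shown for reference. They also enter the main fit, so they share in its gene filter, scaling and estimate of spread.

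CXCR4 is the receptor for the chemokine CXCL12, which stromal cells of the bone marrow make to hold hematopoietic cells in place. After CXCL12 binds, GRK kinases phosphorylate the C-tail of CXCR4, and arrestins bind there, stop G protein signaling and take the receptor into the cell. Truncations of this tail leave a receptor that resists desensitization, and in humans they cause the WHIM syndrome. OPCs give rise to the osteoblasts that lay down and mineralize bone matrix, and they also make signals such as RANKL and its decoy receptor that set the number of bone-resorbing osteoclasts.

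Depth was alike in both groups, with 64099849 to 92683497 counts on genes in the +/1013 libraries and 66649890 to 75727431 in the 1013/1013 libraries. Levels below are counts scaled to the TMM-normalised library size (normalised CPM), in the order of replicates 1, 2 and 3. At these depths 3 counts, taken as the limit of detection, stand for 0.0324 to 0.0468 CPM, a limit that covers counting error only. Osteoblast regulators were found in all 6 libraries. Runx2 stood at 63.6, 60.0 and 61.9 CPM in +/1013 and 56.3, 59.2 and 57.6 CPM in 1013/1013. Sp7, which acts after Runx2, stood at 153, 281 and 245 CPM against 141, 226 and 222 CPM. The bone collagen genes Col1a1 and Col1a2 varied more, from 16.1% of counts in 1013/1013 replicate 1 to 38.7% in +/1013 replicate 2. Among these 6, 1 library stood apart in leukocyte markers. The replicate 2 pool of 1013/1013 held 16561 CPM in 30 leukocyte markers, whereas the other 2 pools held 108 and 71.8 CPM and the +/1013 pools 157, 190 and 213 CPM. Ptprc, which encodes the CD45 used to remove leukocytes, was at 98.3 CPM there and between 0.0163 and 2.37 CPM in the other 5 libraries. Results that rest on this pool are therefore given with and without it. The +/1013 replicate 1 pool was the highest of the 6 in mural and muscle markers, and the values without it are given beside the gene lists it touches.

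Across all genes the second mutant allele gave no gene that passed the test. In edgeR's quasi-likelihood test with all 9 OPC libraries, 0 of 16207 genes (0%) reached a Benjamini-Hochberg adjusted p under 0.05 with a change of at least 1.5-fold, and the smallest adjusted p was 0.203, for Stk25. At an unadjusted p under 0.05 there were 513 genes (3.17%), of which 275 (1.7%) were higher and 238 (1.47%) lower in 1013/1013. Leaving out WT replicate 3, a pool with 22840 CPM in leukocyte markers, gave 698 of 17291 genes at that p. The 3 libraries of one group lay wholly above or below those of the other for 1171 genes (7.23%), 574 of them higher (3.54%) and 597 lower (3.68%) in 1013/1013. Over all genes tested, 8454 log2 fold changes were above 0 and 7752 below, with a median of 0.02. DESeq2's Wald test called 75 genes, 0.349% of the 21500 genes to which it gave an adjusted p, 50 higher (0.233%) and 25 lower (0.116%). Of these 75 genes, 41 had no count in any +/1013 library and 10 none in any 1013/1013 library, and 33 were higher with their highest value in the leukocyte-rich replicate 2 pool. With the replicate number as a block, DESeq2 called 768 genes and edgeR 0. Without the replicate 2 pool of 1013/1013, DESeq2 called 103 genes, 19 higher and 84 lower, of which 24 were among the 75. Only 8 of the 75 genes had a mean of at least 10 CPM, and they are described next. As edgeR called none of them, "higher" and "lower" below state the order of the values and not a call, unless DESeq2 is named.

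**Figure D1:**
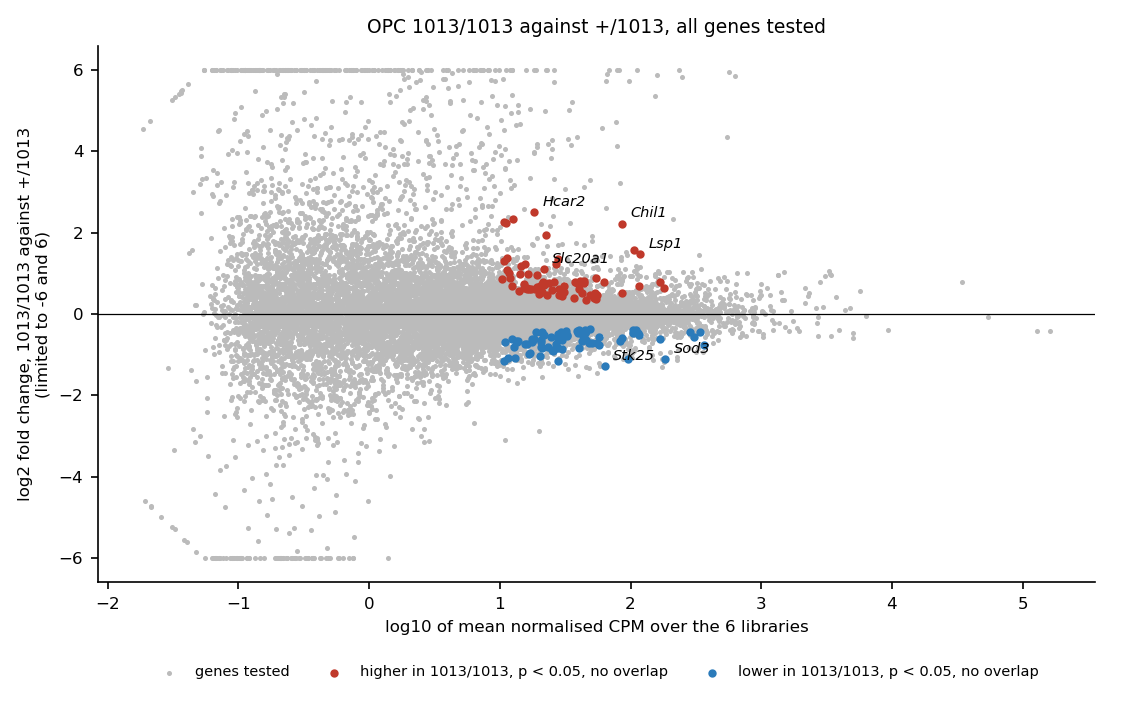
Each point is 1 of the 16207 genes tested, with the log10 of its mean normalised CPM over the 6 libraries on the x axis and its edgeR log2 fold change (1013/1013 against +/1013, drawn no further than 6 and -6) on the y axis. Red (67) and blue (75) points mark genes at a mean of 10 CPM or more, with an unadjusted p under 0.05 and no overlap between the groups. Stk25 lies alone at the lower edge of the cloud at its level, and the points at the limit of 6 are genes near 0 in the +/1013 group.

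The kinase gene Stk25 gave the clearest difference between the genotypes. It encodes a serine/threonine kinase of the Golgi and of the STRIPAK phosphatase complex (ENSMUSG00000026277.14, mm10 chr1:93619751-93658659, minus strand). Its levels were 91.3, 81.4 and 96.8 CPM in +/1013 and 38.5, 34.8 and 37.1 CPM in 1013/1013. The highest 1013/1013 pool was thus far below the lowest +/1013 pool, and the pools of each genotype were close to each other (89.8 ± 7.82 against 36.8 ± 1.91 CPM, SD, n = 3 each). The log2 fold change was -1.29 (SE 0.14), with an adjusted p of 0.203 by edgeR's quasi-likelihood test over all genes and of 7.13e-25 by DESeq2's Wald test. Over all other settings tried it stayed between -1.36 and -1.23. With the 8 SSC libraries in the same edgeR fit, Stk25 passed, as the 1 gene called (log2 fold change -1.29, adjusted p 0.0101). It passed in no other edgeR fit of this comparison. There the smallest adjusted p of any gene was 0.999 with the 6 libraries alone and 0.645 with the replicate block. WT OPCs held 136, 130 and 126 CPM, above every +/1013 pool, so the level stepped down from WT to +/1013 to 1013/1013 with no overlap between neighbours. In SSCs the gene was lower in the homozygotes too, at 115, 112 and 112 CPM in +/1013 and 68.6 and 70.6 CPM in 1013/1013. The effect in OPCs was larger than that in SSCs by 0.59 on the log2 scale (-0.59, SE 0.22), a difference that did not pass edgeR's quasi-likelihood test (adjusted p 0.873).

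The last 2226 bases of Stk25 overlap Farp2, a gene of the other strand, and the counting is not stated to use strand. Farp2, which encodes a guanine nucleotide exchange factor, was at 61.1, 92.0 and 74.6 CPM in +/1013 and 35.2, 64.2 and 67.4 CPM in 1013/1013. These ranges overlap, and the log2 fold change was -0.45 (SE 0.27). Stk25 lies 34.9 Mb from Cxcr4 on the same chromosome. Of the 18 genes tested of the STRIPAK complex, 9 were higher and 9 lower, with a median log2 fold change of -0.04. Beside Stk25, Fgfr1op2, a coiled-coil subunit of the complex, reached an unadjusted p under 0.05 in the other direction. Fgfr1op2 stood at 46.2, 43.1 and 49.4 CPM in +/1013 and 76.3, 54.1 and 60.8 CPM in 1013/1013. Ppp2ca, the catalytic subunit of its phosphatase, was near even, at 282, 259 and 317 CPM against 313, 264 and 328 CPM. Stk26, a kinase of the same family as Stk25, was at 29.9, 57.3 and 74.3 CPM against 133, 61.0 and 117 CPM, so its groups overlapped.

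The promoters of 3 genes whose groups lay apart are shown, because they are the genes of transport, signaling and growth control followed most closely here: Stk25, the phosphate transporter gene Slc20a1 and Igfbp3. They come from RefSeq on GRCm38.p6 (the build of mm10), from 250 bases before the start to 50 after it, 5′ to 3′ on the gene's strand. They lie at chr1:93635678-93635977 (minus strand, inside the span of Stk25 given above, since GENCODE also holds a transcript that starts further upstream), chr2:129198523-129198822 (plus strand, the most upstream of 2 starts) and chr11:7213874-7214173 (minus strand). Capitals mark matches on either strand to 5 motifs, which were picked after the sequences and values had been seen: ACTACAA (the core of the ZNF143 motif), GGGCGG (the GC box), TGTGGT (a RUNX motif), CACGTG (an E-box) and TATAAA (the TATA box).
Stk25: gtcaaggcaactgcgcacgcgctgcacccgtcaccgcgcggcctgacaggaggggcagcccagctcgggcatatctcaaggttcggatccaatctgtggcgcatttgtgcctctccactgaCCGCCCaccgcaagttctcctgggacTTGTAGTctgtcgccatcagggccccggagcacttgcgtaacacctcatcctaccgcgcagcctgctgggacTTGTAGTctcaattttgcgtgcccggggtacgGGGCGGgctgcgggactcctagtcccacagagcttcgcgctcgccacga
Slc20a1: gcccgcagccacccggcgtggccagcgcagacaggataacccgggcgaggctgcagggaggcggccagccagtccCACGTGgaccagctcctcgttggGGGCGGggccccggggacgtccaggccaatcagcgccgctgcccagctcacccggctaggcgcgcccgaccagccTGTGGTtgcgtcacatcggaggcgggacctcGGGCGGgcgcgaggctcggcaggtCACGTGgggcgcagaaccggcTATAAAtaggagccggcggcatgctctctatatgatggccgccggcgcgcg
Igfbp3: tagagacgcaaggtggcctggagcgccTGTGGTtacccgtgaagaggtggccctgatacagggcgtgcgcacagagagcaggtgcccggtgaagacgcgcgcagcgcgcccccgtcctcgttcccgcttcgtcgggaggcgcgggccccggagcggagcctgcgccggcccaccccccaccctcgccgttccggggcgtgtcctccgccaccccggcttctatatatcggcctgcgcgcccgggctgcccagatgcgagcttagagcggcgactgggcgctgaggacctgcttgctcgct
The Stk25 window holds 2 ZNF143 cores and 2 GC boxes. At least 1 such core occurs in 3.24% of the 32851 promoters of the table, and 2 or more in 0.177%. The Slc20a1 window holds 2 GC boxes, 2 E-boxes, 1 RUNX motif and 1 TATA box, and the Igfbp3 window 1 RUNX motif. No match overlaps another. These motifs are common, since 35.7% of promoters hold a GC box, 16.8% a RUNX motif, 13.6% a TATA box and 7.15% an E-box. Among the 11540 tested genes with a promoter in the table, 520 had a ZNF143 core, of which 270 were higher and 250 lower in 1013/1013, with a median log2 fold change of 0.01. Of the 46 with 2 or more, 23 were higher and 23 lower. A match describes the letters and not binding.

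The other 3 lower genes called by DESeq2 at this level were Sgca, Ess2 and Tmtc2. Sgca, which encodes the α-sarcoglycan of the muscle dystrophin complex, was at 38.0, 42.5 and 35.4 CPM in +/1013 and 17.1, 15.5 and 19.8 CPM in 1013/1013 (mm10 chr11:94962791-94976327). The groups lay well apart, and the log2 fold change was -1.15 (SE 0.24, adjusted p 0.00635 by DESeq2 and 0.999 by edgeR). WT OPCs were at 42.0, 25.1 and 43.5 CPM, all above the 1013/1013 pools. Ess2, which encodes a nuclear protein tied to splicing (chr16:17900709-17911348), was at 21.9, 20.6 and 24.8 CPM against 10.2, 13.8 and 9.80 CPM. Its log2 fold change was -0.99 (SE 0.21, adjusted p 0.00132 by DESeq2). In WT it was at 14.8, 17.7 and 17.3 CPM, between the mutant groups and apart from both. Tmtc2, an O-mannosyltransferase of the endoplasmic reticulum (chr10:105187663-105574451), was at 16, 13.9 and 16.8 CPM against 5.21, 8.88 and 7.94 CPM. Its log2 fold change was -1.09 (SE 0.26, adjusted p 0.0113 by DESeq2), and WT lay between at 13.5, 13.5 and 11.3 CPM.

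The other 4 of the 8 genes were higher in 1013/1013. Slc20a1 encodes a sodium-dependent phosphate transporter that osteoblasts use in mineralization (mm10 chr2:129198764-129211616). It was at 12.2, 15.2 and 14.1 CPM in +/1013 and 27.8, 28.5 and 32.5 CPM in 1013/1013, with WT at 24.9, 14.9 and 13.5 CPM. No pool of one mutant group reached the other, and the log2 fold change was 1.10 (SE 0.26, adjusted p 0.0251 by DESeq2, 1.01 to 1.17 over all settings). Lsp1 encodes an actin-binding protein named for its place in leukocytes (chr7:142460809-142494867). It was at 67.6, 48.6 and 70.4 CPM against 218, 175 and 127 CPM. Here the leukocyte-rich pool was not the highest, and without it the log2 fold change was 1.45 in place of 1.48 (adjusted p 0.00132 by DESeq2 with it). Wdr73 and Irf2bp2 were outside the rule for naming genes and were taken up after their values had been seen. Wdr73, which encodes a WD-repeat protein (chr7:80890723-80901269), was at 5.94, 6.59 and 6.30 CPM against 19.8, 13.3 and 13.1 CPM, with WT between at 10.2, 11 and 10.6 CPM. Its log2 fold change was 1.29 (SE 0.24, adjusted p 1.1e-06 by DESeq2). Irf2bp2, a transcriptional corepressor (chr8:126588296-126593986), was at 21.5, 27.6 and 33.7 CPM against 49.1, 48.5 and 45.9 CPM, a log2 fold change of 0.79 (SE 0.19, adjusted p 0.0122 by DESeq2). WT OPCs held 21.7, 23.7 and 21.7 CPM of it, below all 1013/1013 pools.

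**Figure D2:**
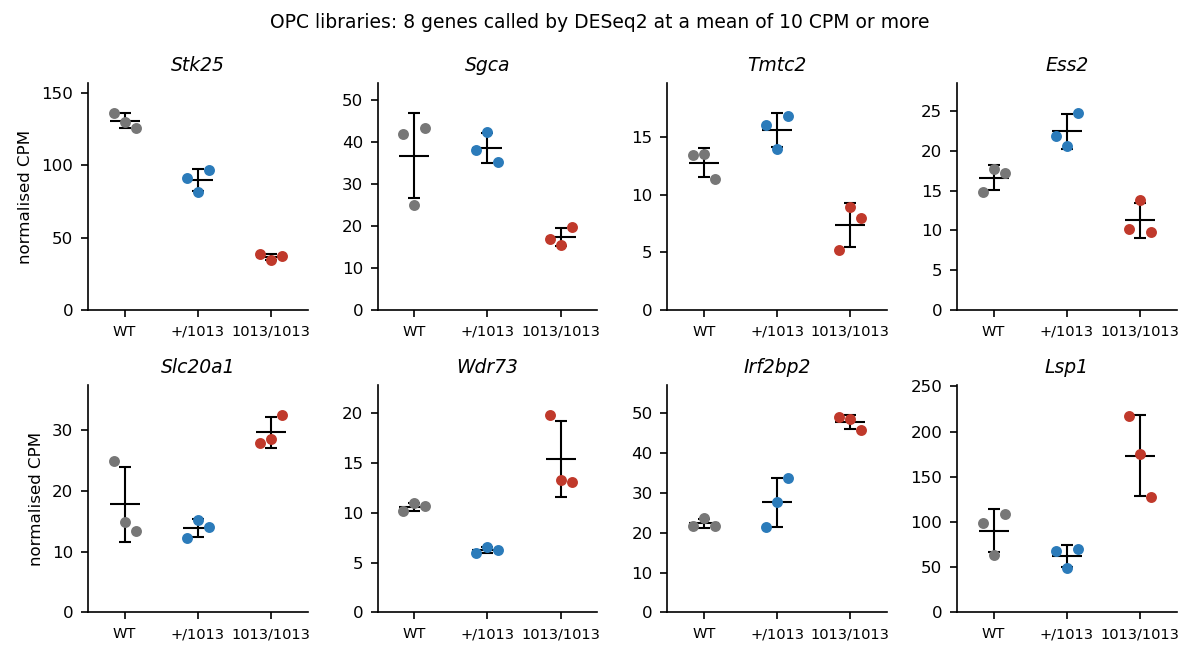
Normalised CPM (y axis, from 0) of the 8 genes that DESeq2 called at a mean of at least 10 CPM, in the 3 OPC libraries of each genotype (x axis). Points are libraries, and the bars give the mean ± SD (n = 3). In every panel the 1013/1013 pools lie apart from the +/1013 pools, and only for Stk25 do the 3 genotypes form steps, from 136, 130 and 126 CPM in WT to 38.5, 34.8 and 37.1 CPM in 1013/1013.

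Below 10 CPM, 2 secreted factors of bone were lower in 1013/1013. Il12a, the p35 subunit of interleukin-12, a cytokine that acts against osteoclast formation, was at 7.55, 6.65 and 6.17 CPM in +/1013 and 2.21, 2.83 and 2.46 CPM in 1013/1013 (mm10 chr3:68690644-68698547). The pools were tight within each genotype, and the log2 fold change was -1.44 (SE 0.31, adjusted p 3.14e-05 by DESeq2, -1.56 to -1.36 over all settings). WT OPCs were at 7.91, 5.65 and 8.63 CPM, within or near the +/1013 range. Igfbp3, which binds insulin-like growth factors outside the cell (chr11:7206086-7213923), was at 14.2, 11.6 and 6.83 CPM against 1.09, 1.59 and 2.43 CPM. Its log2 fold change was -2.68 (SE 0.58, adjusted p 0.00112 by DESeq2, -3.02 to -2.44 over all settings). WT was at 6.11, 14 and 3.75 CPM, all above the 1013/1013 pools.

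Among genes at a mean of 10 CPM or more with an unadjusted p under 0.05 and no overlap, 67 were higher and 75 lower in 1013/1013. All 142 kept their direction under every setting tried. The 3 conditions chose them, so this gives no measure of stability. The 10 with the largest log2 fold changes in each direction are given here. Of the lower genes, Plat encodes tissue plasminogen activator, which opens fibrin and matrix to plasmin. It was at 179, 119 and 95.9 CPM in +/1013 and 71.0, 70.2 and 41.1 CPM in 1013/1013 (log2 fold change -1.11, SE 0.42). Sod3, the extracellular superoxide dismutase, was at 366, 215 and 173 CPM against 101, 143 and 106 CPM (-1.11, SE 0.42). For both, the +/1013 replicate 1 pool was the highest of the 6. Amigo1, a cell adhesion protein with leucine-rich repeats, was at 24.5, 15.5 and 13.5 CPM against 10.5, 5.47 and 9.16 CPM. Rtn4rl1, a Nogo receptor family member, was at 23.7, 24.7 and 32.7 CPM against 6.90, 18.4 and 14.4 CPM. Arhgef18 was at 17.9, 32.5 and 16.9 CPM against 8.82, 16.8 and 8.90 CPM, so the groups nearly met. Ccdc71 was at 21.8, 11.6 and 11 CPM against 7.63, 7.31 and 5.04 CPM. Stk25, Sgca, Tmtc2 and Ess2 complete these 10. As for Stk25 and Farp2, some genes named here overlap a gene of the other strand. The overlaps are of whole gene spans, introns included, and do not measure shared reads. They touch Sgca (864 bases shared with Hils1), Ccdc71 (1055 with Klhdc8b), Slc20a1 (5659 with 9830144P21Rik) and Lsp1 (3794 with Prr33). Irf2bp2 (2693 with Gm26759), Il16 (10303 with Stard5), Pygl (3648 with F730035M05Rik) and Tmtc2 (2066 with Gm48206) are touched too.

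Of the 10 higher genes with the largest log2 fold changes, 9 peaked in the leukocyte-rich replicate 2 pool. Among all 67 higher genes the share was smaller. The highest 1013/1013 value was in replicate 2 for 27, in replicate 1 for 25 and in replicate 3 for 15. Hcar2, the niacin receptor, was at 6.87, 2.39 and 7.26 CPM in +/1013 and 8.16, 68.8 and 16.9 CPM in 1013/1013. Its log2 fold change was 2.51 with that pool and 1.16 without it. Pik3cd, the leukocyte catalytic subunit of phosphoinositide 3-kinase, was at 6.74, 2.11 and 3.71 CPM against 14.6, 39.6 and 9.27 CPM (2.34, and 1.48 without the pool). Il16, a leukocyte chemoattractant, was at 1.20, 7.71 and 2.24 CPM against 11.8, 29.0 and 12.2 CPM (2.25, and 1.68 without). Rhd, of the Rh blood group family, was at 4.91, 3.35 and 3.32 CPM against 7.80, 40.1 and 6.91 CPM (2.24, and 0.91 without). Chil1, a secreted chitinase-like glycoprotein, was at 20.9, 27.0 and 42.6 CPM against 121, 259 and 43.5 CPM (2.22, and 1.42 without). H2-Ab1, an MHC class II chain of antigen-presenting cells, was at 5.85, 10.04 and 12.1 CPM against 13.7, 75.0 and 18.6 CPM (1.94, and 0.77 without). Pygl, the liver form of glycogen phosphorylase, was at 19.5, 61.0 and 81.7 CPM against 116, 216 and 148 CPM (1.56, and 1.26 without). Dock8, an exchange factor of hematopoietic cells for Cdc42, was at 11.7, 18.3 and 16.8 CPM against 36.8, 56.9 and 25.4 CPM (1.35, and 0.97 without). Rin3, a regulator of endosomal Rab5, and Lsp1 complete these 10. In WT OPCs, 8 of the 10 were highest in replicate 3, which held 22840 CPM in leukocyte markers. The same count was not taken over all genes. What the leukocyte transcripts contribute to these 10 genes was not tested. Without the replicate 2 pool, 32 of the 67 higher and 52 of the 75 lower genes kept an unadjusted p under 0.05. Leaving out other pools, 29 higher and 30 lower genes kept it without 1013/1013 replicate 1, and 42 and 32 without 1013/1013 replicate 3. The numbers were 24 and 28 without +/1013 replicate 1, 29 and 36 without +/1013 replicate 2, and 46 and 52 without +/1013 replicate 3. More higher genes kept it without replicate 3 of either mutant group than without the replicate 2 pool of 1013/1013, and fewer without the other mutant pools.

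Most of these 142 genes had the +/1013 group, not the WT group, at one end. The WT mean lay between the means of the mutant groups for 59 of the 67 higher and 53 of the 75 lower genes. The +/1013 mean lay between those of WT and 1013/1013 for 7 and 18 genes, Stk25 among the latter. The genes were chosen for their distance from +/1013, so these counts describe the selection and do not compare +/1013 with WT.

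The receptor itself, its ligand and its scavenger did not differ beyond the spread. Cxcr4 was at 16.2, 5.21 and 3.74 CPM in +/1013 and 4.6, 15.4 and 3.86 CPM in 1013/1013, with WT at 12.7, 8.17 and 5.34 CPM. One pool of each mutant genotype was high, and the log2 fold change was -0.08 (SE 0.71). The mutation acts on the tail of the protein, so this level checks no label. Cxcl12 was at 263, 91.9 and 25.3 CPM against 52.4, 191 and 39.2 CPM, a spread within each genotype larger than the difference (-0.43, SE 0.87). Ackr3, the atypical receptor that scavenges CXCL12, was at 219, 138 and 129 CPM against 131, 124 and 134 CPM. Of 21 genes tested that desensitize or sort chemokine receptors, 9 were higher and 12 lower (median log2 fold change -0.16, -0.37 without the replicate 2 pool of 1013/1013, and 0.09 with 13 of 21 higher without the +/1013 replicate 1 pool). Hgs, which sorts ubiquitinated receptors to lysosomes, was lower without overlap, at 46.5, 51.2 and 39.2 CPM against 29.7, 33.4 and 36.4 CPM (-0.46, SE 0.18, unadjusted p 0.0336). Grk3, one of the kinases that phosphorylate the C-tail, was at 0, 0.911 and 1.65 CPM against 0 in all 3 pools of 1013/1013, and in WT at 0.666, 0.055 and 2.35 CPM, low levels with zeros in both mutant groups. Of the 19 G protein subunits, 12 were higher and 7 lower (median 0.06). Gnai2, the subunit through which CXCR4 mainly signals in leukocytes, was at 440, 465 and 510 CPM against 523, 639 and 519 CPM. Of 17 feedback targets of ERK, which CXCR4 activates, 6 were higher and 11 lower (median -0.18, and 0.02 without the +/1013 replicate 1 pool).

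Among bone-forming genes edgeR called none, and of the genes in this paragraph DESeq2 called Slc20a1 and Il12a, described above. Of 20 osteoblast transcription factors 14 were lower and 6 higher, with a median log2 fold change of -0.19 beside 0.02 for all genes. Dlx5, a homeobox activator of osteoblast genes, was lower without overlap, at 39.7, 37.7 and 34.2 CPM against 34.1, 25.7 and 29.1 CPM, though the nearest pools almost met (-0.33, SE 0.16). Of 21 non-collagen proteins of bone matrix 15 were lower (median -0.39). Dcn, the collagen-binding proteoglycan decorin, was at 7188, 5111 and 5824 CPM against 3498, 3793 and 4773 CPM (-0.59, SE 0.32, unadjusted p 0.104). Col1a1, the main bone collagen, was at 115993, 235027 and 201475 CPM against 78474, 187383 and 148825 CPM, with groups that overlap (-0.41, SE 0.50). Col1a1 and Col1a2 together took 25.6%, 38.7% and 33.3% of all counts in +/1013 and 16.1%, 33.9% and 26.7% in 1013/1013. Of 15 mineralization and phosphate genes 8 were higher and 7 lower (median 0.05), with Slc20a1 among the higher. Without the replicate 2 pool 5 were higher and 10 lower (-0.28), and without the +/1013 replicate 1 pool 7 were higher and 8 lower (-0.04). Alpl, the alkaline phosphatase of mineralizing cells, was at 1061, 1422 and 1544 CPM against 859, 1105 and 1474 CPM. Enpp1, which makes the mineralization inhibitor pyrophosphate, was at 74.4, 174 and 189 CPM against 224, 209 and 233 CPM, with all 1013/1013 pools on top (0.61, SE 0.35, unadjusted p 0.124). Osteocyte genes were lower in 10 of 16 (median -0.26, and -0.76 without the replicate 2 pool). Of 20 genes by which stromal cells regulate osteoclasts, 13 were lower and 7 higher (median -0.40, and 0.02 without the +/1013 replicate 1 pool), with Il12a the 1 member at an unadjusted p under 0.05. Csf1, the growth factor of osteoclast precursors, was at 75.7, 43.9 and 28.9 CPM against 28.9, 36.0 and 22.4 CPM.

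Cartilage genes were higher in 2 of the 3 homozygous pools. Of 23 chondrocyte genes, 21 were higher in 1013/1013 and 2 lower, with a median log2 fold change of 0.84, and 0 had an unadjusted p under 0.05. Sox9, the master regulator of cartilage, was at 121, 141 and 210 CPM in +/1013 and 420, 109 and 316 CPM in 1013/1013. Acan, the aggrecan of cartilage matrix, was at 428, 971 and 1570 CPM against 2985, 892 and 2176 CPM. Col2a1, the cartilage collagen, was at 7974, 24687 and 42863 CPM against 58365, 22148 and 50112 CPM. For each of them the replicate 2 pool of 1013/1013 lay within or below the +/1013 range and the other 2 pools lay above it. The summed list stood at 24932, 50089 and 85513 CPM against 118878, 42706 and 101197 CPM, with WT at 51294, 62670 and 26084 CPM. Without the replicate 2 pool the median was 1.18 (20 of 23 higher), and without the +/1013 replicate 1 pool, the lowest, it was 0.48 (18 of 23 higher). In such bulk samples more cells of a type and more RNA per cell cannot be told apart. Metabolic lists were higher too, with the same pools on top for cholesterol and fatty acid synthesis. For glycolysis and hypoxia all homozygous pools summed above every +/1013 pool, at 4031, 4008 and 4778 CPM against 2649, 3194 and 3865 CPM. Of 25 genes of cholesterol and fatty acid synthesis, 24 were higher (median 0.43), among them Acly, which makes cytosolic acetyl-CoA, at 93.4, 157 and 217 CPM against 227, 177 and 357 CPM. Of 27 glycolysis and hypoxia genes tested, 22 were higher (median 0.47), among them Slc2a1, the glucose transporter GLUT1, at 43.7, 54.5 and 75.9 CPM against 78.2, 74.9 and 110 CPM (0.59, SE 0.27, unadjusted p 0.0546). Without the +/1013 replicate 1 pool these medians were 0.24 and 0.32. The share of the chondrocyte transcripts in the metabolic lists was not tested.

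Signals of the marrow niche and of stromal growth lay on the lower side, some lists barely so without the +/1013 replicate 1 pool. Of 19 genes by which stromal cells keep hematopoietic cells, 17 were lower and 2 higher (median log2 fold change -0.78). Without the +/1013 replicate 1 pool 14 were lower (-0.33). Angpt1, the ligand of the receptor TIE2, was at 3.59, 5.06 and 2.37 CPM in +/1013 and 1.41, 0.855 and 1.52 CPM in 1013/1013 (-1.54, SE 0.56, unadjusted p 0.0232). Foxc1, a transcription factor of CXCL12-rich stromal cells, was at 31.6, 30.7 and 41.3 CPM against 87.8, 39.0 and 54.7 CPM (0.81, SE 0.34). Of 24 FGF and IGF genes 19 were lower (median -0.39), and 13 without the +/1013 replicate 1 pool (-0.03). Fgfr1, a main FGF receptor of osteoblasts, was at 374, 398 and 317 CPM against 206, 302 and 227 CPM (-0.57, SE 0.23, unadjusted p 0.0374). Of 48 BMP and TGF-β pathway genes 30 were lower (median -0.18). Secreted inhibitors were among them: Bmp3 was at 189, 219 and 199 CPM against 104, 168 and 126 CPM, and Chrd, the BMP antagonist chordin, at 17.1, 14.9 and 13.2 CPM against 8.43, 10.1 and 11 CPM. Neither overlapped between groups (-0.61 each, with SE 0.25 and 0.23). Of 15 Hedgehog and PTHrP genes 7 were higher and 8 lower. Sufu, the inhibitor of the pathway, was at 18.9, 21.2 and 25.5 CPM against 14.2, 13.8 and 15.2 CPM (-0.61, SE 0.23), while its target Ptch1 was at 26.5, 26.4 and 54.3 CPM against 122, 43.1 and 64.3 CPM, with overlap. Of 43 Wnt genes 27 were lower (median -0.16), and 24 without the +/1013 replicate 1 pool (-0.06). Dkk2, a secreted Wnt modulator, was at 1.82, 0.667 and 2.00 CPM in +/1013 and without a count in every 1013/1013 pool, and also at 0 in 2 of the 3 WT pools.

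Notch genes, matrix proteases and integrins were lower as well. Without the +/1013 replicate 1 pool the medians of the Notch genes and integrins turned. The protease median stayed below 0 without it, with 12 of 21 lower. Of 16 Notch genes 11 were lower (median -0.78, but 0.13 with 9 of 16 higher without that pool). Hey1, a Notch target that restrains osteoblasts, was at 31.9, 25.9 and 11.2 CPM against 10.7, 11.2 and 16 CPM. Of 21 matrix proteases 17 were lower (median -0.37, and -0.17 without that pool), among them Adamts9, at 4.71, 10.8 and 8.44 CPM against 2.94, 3.66 and 3.97 CPM (-1.18, SE 0.45, unadjusted p 0.0298). Of 17 integrins 12 were lower (median -0.22, and 0.06 without that pool). Itga11, a collagen receptor subunit, was at 71.2, 76.0 and 79.9 CPM against 44.9, 59.0 and 55.4 CPM, without overlap (-0.51, SE 0.25). Without that pool the median of the niche genes was -0.33 and that of the FGF and IGF genes -0.03. Of 22 mural and muscle markers 20 were lower (median -0.66, and -0.03 without that pool). The summed level of those markers was 1473, 822 and 827 CPM in +/1013 and 940, 825 and 668 CPM in 1013/1013. Rgs5, which marks pericytes, was at 100, 3.71 and 2.01 CPM against 3.8, 7.37 and 3.15 CPM. Their part in the result was not tested.

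Cell cycle genes were higher in 1013/1013 with the leukocyte-rich pool and not without it. Of 45 DNA replication genes 39 were higher (median 0.34), but without the replicate 2 pool 19 were higher and 26 lower (-0.17). Of 45 mitosis genes 40 were higher (median 0.50), and without that pool 17 (-0.23). All 3 homozygous pools were above every +/1013 pool for 4 of the 45 DNA replication and 3 of the 45 mitosis genes, beside 3.54% of all genes. Dtl, an adaptor of the ubiquitin ligase that degrades replication licensing factors, was at 0.743, 3.12 and 5.03 CPM against 9.56, 19.3 and 9.01 CPM (2.09, SE 0.67, unadjusted p 0.0133). Rpa2, which covers single-stranded DNA, was at 12.5, 15.9 and 19.2 CPM against 25.5, 28.7 and 27.5 CPM (0.78, SE 0.27, unadjusted p 0.0203). Anln, of the cytokinetic ring, was at 2.93, 6.38 and 6.28 CPM against 9.08, 13.4 and 9.11 CPM. Cdkn1a, the cell cycle inhibitor p21, was near even, at 184, 236 and 219 CPM against 148, 181 and 209 CPM. The genes of ribosomes (28 of 79 higher, median -0.06, and 40 of 79 higher without the replicate 2 pool) and of nuclear-encoded oxidative phosphorylation (17 of 73 higher, median -0.08) lay close to the median of all genes. In none of the lists did edgeR call a gene.

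**Figure D3:**
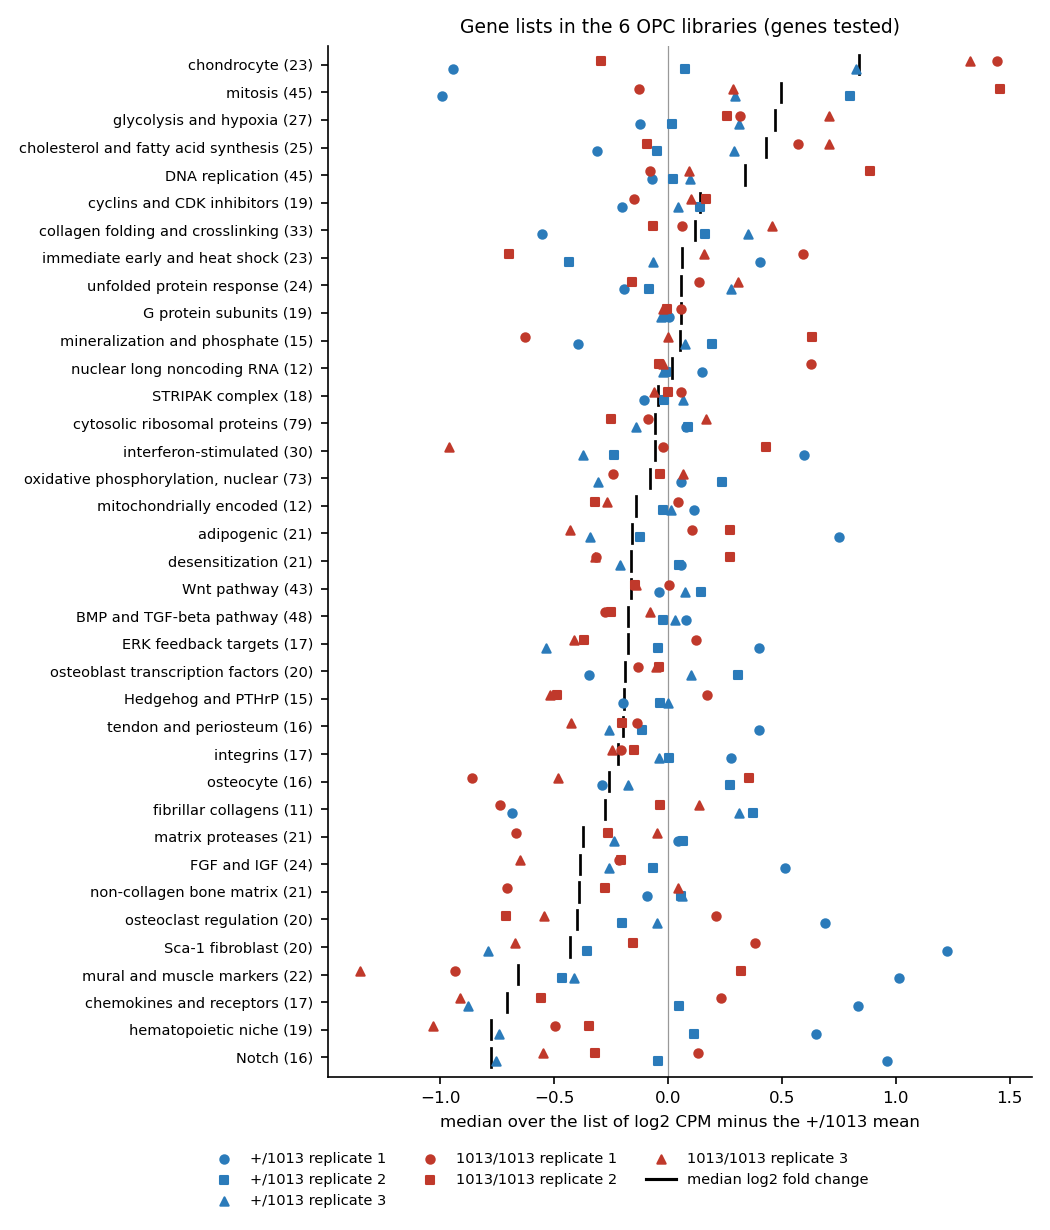
Each row is a gene list (genes tested in brackets). Blue and red symbols give, for each OPC library, the median over the list of log2 CPM minus the mean of the +/1013 libraries (x axis, log2 units), and the black bar is the median edgeR log2 fold change. Libraries of one genotype spread as widely as the genotypes differ in most rows: in the chondrocyte row the median fold change is 0.84, yet the 1013/1013 replicate 2 square lies below the +/1013 replicate 2 square.

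Markers of cells that the sort should remove moved with single libraries. All 27 leukocyte markers tested were higher in 1013/1013 (median log2 fold change 4.72), but without the replicate 2 pool 6 were higher and 21 lower (-0.73). Itgam, the myeloid integrin CD11b, was at 0.0128, 0 and 0 CPM in +/1013 and 0.381, 22.7 and 0.124 CPM in 1013/1013. Csf1r, the receptor of macrophages and osteoclast precursors, was at 0.897, 0.879 and 0.379 CPM against 1.23, 57.2 and 0.837 CPM. Erythroid markers summed to 782, 188 and 131 CPM against 109, 2797 and 60.9 CPM, and Hbb-bs, a β-globin, was at 405, 80.0 and 56.7 CPM against 44.6, 1420 and 3.89 CPM. Endothelial markers summed to 101, 40.8 and 25.2 CPM against 30.3, 57.4 and 25.8 CPM, with Pecam1, the CD31 of the sort, at 10.9, 0 and 0.0118 CPM against 1.34, 7.12 and 0 CPM. Of the genes of the positive gate, Itgav (CD51) was at 42.6, 45.8 and 39.1 CPM against 57.3, 51.9 and 44.9 CPM, and Pdgfra at 66.4, 125 and 86.8 CPM against 45.7, 88.3 and 61.9 CPM. Ly6a, which encodes the Sca-1 used to set OPCs apart from SSCs, was at 5.10, 1.01 and 0.746 CPM against 10.3, 5.05 and 0.914 CPM.

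**Figure D4:**
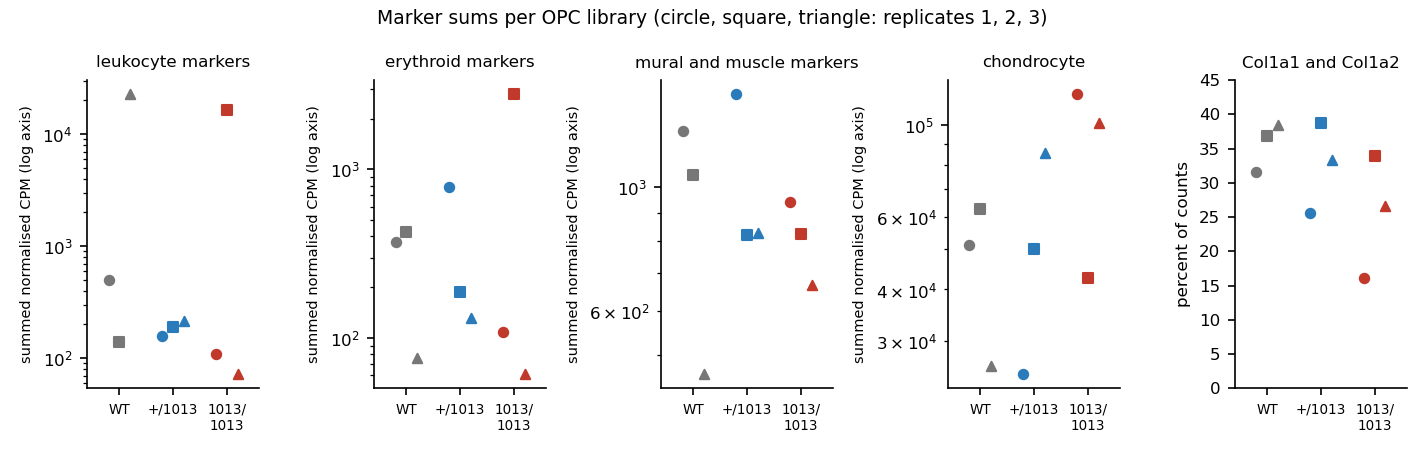
Summed normalised CPM (log axes, left 4 panels) of leukocyte, erythroid, mural and muscle, and chondrocyte markers, and the percent of counts on Col1a1 and Col1a2 (right panel, from 0), in each OPC library by genotype. Circles, squares and triangles are replicates 1, 2 and 3. The 1013/1013 replicate 2 square is alone at the top of its group for leukocyte and erythroid markers, at 16561 and 2797 CPM, and lowest of its group for chondrocyte markers.

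Genes near Cxcr4 were examined because they are inherited together with the 1013 allele. Of the 58 tested genes within 5 Mb of Cxcr4, 40 were higher and 18 lower in 1013/1013, with a median log2 fold change of 0.20 and 2 at an unadjusted p under 0.05. Without the replicate 2 pool of 1013/1013, 29 were higher and 29 lower. On the rest of chromosome 1, 521 were higher and 427 lower (median 0.04). Over the whole chromosome 38 of 1007 genes (3.77%) had an unadjusted p under 0.05, beside 3.17% of all genes. Stk25, 34.9 Mb away, was the chromosome 1 gene with the smallest p.

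**Figure D5:**
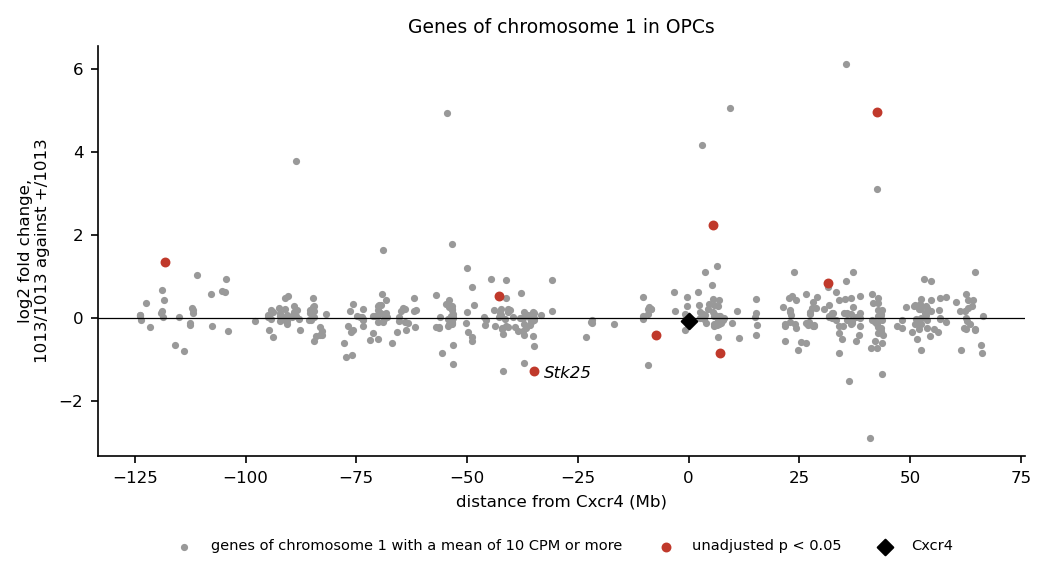
Log2 fold change of 1013/1013 against +/1013 (y axis) for the 443 genes of chromosome 1 at a mean of 10 CPM or more, by their distance from Cxcr4 in Mb (x axis). Red points (8) have an unadjusted p under 0.05, and the diamond is Cxcr4 itself, at -0.08. Points lie on both sides of 0, and Stk25 is at -1.29. The 58 genes tested within 5 Mb of Cxcr4, at any level, had a median of 0.20.

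The effect of the second mutant allele in OPCs was set against that in SSCs (3 +/1013 and 2 1013/1013 libraries). The test of the difference called 0 of 20238 genes in edgeR's quasi-likelihood test (0%), with 1129 (5.58%) at an unadjusted p under 0.05 and a smallest adjusted p of 0.0651. DESeq2's Wald test called 243. Among the leading genes described above, Ess2 and Lsp1 had the smallest p for this difference. Ess2 was lower in OPCs of the homozygotes but stood at 23.2, 18 and 27.2 CPM in +/1013 SSCs and 40.5 and 28.3 CPM in 1013/1013 SSCs, a difference of -1.59 (SE 0.34, adjusted p 0.685 by edgeR). Lsp1 was at 406, 364 and 366 CPM in +/1013 SSCs and 370 and 249 CPM in 1013/1013 SSCs, a difference of 1.77 (SE 0.39, adjusted p 0.685 by edgeR). Igfbp3 was at 293, 262 and 178 CPM against 121 and 224 CPM in SSCs, far above its level in OPCs, and Slc20a1 at 47.7, 79.5 and 33.9 CPM against 3.48 and 70.1 CPM, so its 2 homozygous SSC pools were far apart. Of 24 leading genes, the SSC groups lay apart for 6, beside 14.5% of the 20238 genes tested, in the OPC direction for Stk25, Tmtc2, Hcar2, Dock8 and H2-Ab1 and in the other for Ess2. Of these, Stk25 had the least spread within each genotype of SSCs. The 24 were drawn only from genes with the smaller p values for this difference, and Wdr73 was not among them. The count therefore leaves out genes whose effects differed least between OPCs and SSCs.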

How the data were processed

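Bulk RNA of sorted OPC pools was copied to cDNA with a SMART-Seq v4 kit, and Nextera XT libraries were sequenced as paired ends. The authors checked reads with FastQC, removed short ones, aligned the rest to mm10 with STAR and ran HTSeq to count reads in genes, and they deposited the raw counts. Tool versions, the annotation release and the strand setting of the counting are not given in the sources used here. Each of the 55335 genes was matched by identifier to GENCODE M21 (55154 matched). HTSeq's rows that name no gene stayed out of library sizes and tests. Among the 6 libraries, 1.15% to 2.62% of reads fell on no gene, 1.92% to 2.62% were ambiguous and 7.75% to 10.4% had no unique place.

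The 9 OPC libraries entered 1 edgeR quasi-likelihood fit (edgeR 4.0.16, R 4.3.3, legacy = TRUE) with genotype as the only term, after the filter of filterByExpr and TMM scaling. Calls needed a change of 1.5-fold or more and p under 0.05 after Benjamini-Hochberg adjustment. Standard errors are the absolute log2 fold change over the square root of F. The difference from SSCs was an interaction in 1 fit of the 17 libraries. DESeq2 1.42.0 and the other settings named under the dependence on processing were alternatives, and both tools were tested on simulated data. An exact permutation test of 3 against 3 pools cannot give a two-sided p below 0.1, so none was used. The deviations of same-numbered +/1013 and 1013/1013 pools from their group means had r = 0.120, 0.102 and 0.147 across genes. For pools of different number r was -0.172 to 0.0457. Such deviations cancel within a group, so these values cannot show a pairing. The sample titles give only replicate numbers, which served as the block in alternative settings alone.

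Genes named are those of the CXCR4 axis, the 10 largest in each direction with a mean of at least 10 CPM, an unadjusted p under 0.05 and no overlap, and leading members of 43 lists written by hand, except where stated. The comparison, members and lists were chosen with earlier results of these data known. Promoters come from RefSeq (GRCm38.p6).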

Additional observations from a re-analysis of the deposited data

How the results depend on the processing

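In the comparison of 1013/1013 with +/1013 OPCs, edgeR called 0 genes with DESeq2's size factors, upper-quartile normalization, no filter, a minimum of 10 counts in each library, the 6 libraries alone, the replicate block, the bias-adjusted fit, no fold threshold and without each library in turn (0 to 0 genes). These settings had 359 to 863 genes at an unadjusted p under 0.05. All 17 libraries in one fit gave 1 gene (Stk25). DESeq2's Wald test called 75, DESeq2 with the replicate block 768 (477 higher, 291 lower, 62 of the 75 among them), and DESeq2 without 1013/1013 replicate 2 103. With the replicate block in edgeR, 586 genes had an unadjusted p under 0.05 in place of 513. The block left edgeR at 0 calls, with a smallest adjusted p of 0.645 in place of 0.203 by its quasi-likelihood test. For the difference from SSCs DESeq2 called 243, and leaving out libraries gave 0 to 1276 genes. The 1276 (1188 higher, 88 lower) came without SSC 1013/1013 replicate 2, which leaves 1 such library, assumed to vary like the other groups, and 1 gene came without SSC +/1013 replicate 3.

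Directions turned for 7 of the genes named. Leaving out libraries, the log2 fold change ranged from -1.50 to 0.69 for Cxcl12, -1.02 to 0.83 for Cxcr4, -2.94 to 2.85 for Hbb-bs, -4.59 to 6.64 for Kit, -2.48 to 8.45 for Pecam1, -0.88 to 6.67 for Ptprc and -3.45 to 0.74 for Rgs5. With the replicate block it was 0.022 for Cxcr4, -0.85 for Hbb-bs and 2.08 for Pecam1 in edgeR, and 0.036, -0.84 and 2.77 in DESeq2. With the block in the 6 libraries alone it was -1.97 for Hbb-bs and 0.23 for Pecam1. DESeq2 without 1013/1013 replicate 2 gave -2.92 for Hbb-bs, -4.83 for Kit and -0.87 for Ptprc. The cause was not tested. The DESeq2 fits with the block or without 1013/1013 replicate 2, and the block in the 6 libraries alone, were chosen after seeing the data. The common biological coefficient of variation was 0.779 in the main fit, with 3 OPC pools a group. That fit includes the leukocyte-rich pools, WT replicate 3 and 1013/1013 replicate 2, so the value is not the spread of the compared libraries alone. Whether replicate spread or depth limits the comparison was not tested.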

Other observations

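Further gene groups outside the lists above differed by less than the spread between pools. Of 24 genes of the unfolded protein response, 15 were higher in 1013/1013 OPCs (median log2 fold change 0.06), and Ddit3, the stress factor CHOP, was at 16.8, 7.89 and 13.2 CPM in +/1013 and 35.3, 14.4 and 20.2 CPM in 1013/1013. Of 23 immediate early and heat shock genes, which cell isolation is known to induce, 15 were higher (median 0.06, and 0.35 without 1013/1013 replicate 2). Of 33 genes of collagen folding and crosslinking 22 were higher (median 0.12, but -0.16 without +/1013 replicate 1). Of 11 fibrillar collagens 7 were lower (median -0.28), and of 12 mitochondrially encoded genes 10 (median -0.14). Of 21 adipogenic genes 10 were higher and 11 lower (median -0.16, but 0.36 with 16 higher without +/1013 replicate 1), with Acsl1, which activates fatty acids, at 17.8, 8.26 and 20.5 CPM against 31.4, 42.8 and 19.8 CPM. Of 30 interferon-stimulated genes 13 were higher and 17 lower (median -0.06), with 6 higher without 1013/1013 replicate 2 (-0.61) and 21 higher without +/1013 replicate 1 (0.43). Ddx58, the sensor RIG-I, was at 7.06, 7.53 and 10.8 CPM against 12, 13.3 and 12.3 CPM, without overlap (log2 fold change 0.57, SE 0.29, unadjusted edgeR p 0.0838). Of 17 chemokines and receptors 11 were lower (median -0.71, but 0.24 without +/1013 replicate 1). Ackr4, a scavenger of the chemokines CCL19 and CCL21, was at 68.4, 34.7 and 59.7 CPM against 15.5, 30.1 and 34.9 CPM. Of 16 tendon and periosteum genes 10 were lower (median -0.20, but 0.34 without that pool), and of 20 genes of Sca-1+ fibroblasts 14 (median -0.43, but 0.35 without it). Of 9 osteoclast markers 4 were higher and 5 lower, and Ctsk, the main bone-degrading protease, was at 223, 255 and 359 CPM against 197, 222 and 292 CPM.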
